A study of Rattus norvegicus with 4 samples.

Results

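The Notch receptors, ligands and target genes were examined in glomeruli of rats given Adriamycin. The set holds 10 genes chosen by their symbols, namely the receptors Notch1, Notch2, Notch3 and Notch4, the ligands Jag1, Jag2 and Dll4, and the targets Hes1, Hey1 and Heyl. All 10 were among the 13261 genes of the deposited expression table. The samples are 4 replicates of a single group of male Wistar rats, an outbred strain, which had received Adriamycin (ADR) into a vein. Adriamycin is doxorubicin, an anthracycline that injures podocytes and produces a nephrotic syndrome in rodents. Glomeruli, the filtering tufts of the kidney, were isolated by sieving, and polyadenylated RNA was sequenced in stranded libraries. The wider study asked how agonists of the nuclear receptor PPARγ act in experimental nephrotic syndrome; untreated and agonist-treated rats were not analysed here, so no value below is a response to ADR. The labels give 2 possible harvest days for the study without assigning one to these rats, and they do not say in so many words that each library came from its own rat. P-values therefore measure the spread between these 4 libraries.

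Notch receptors are cell-surface proteins activated by ligands on a neighbouring cell. Ligand binding lets an ADAM protease and then the gamma-secretase complex cut the receptor, and the freed intracellular domain enters the nucleus, where it binds the DNA-binding protein RBPJ and a Mastermind coactivator and switches on genes such as those of the HES and HEY repressor families. In the kidney the pathway patterns the developing nephron, where Notch2 is needed for podocytes and proximal tubules, and it shapes vessels, where DLL4, NOTCH1 and NOTCH4 act in endothelial cells and NOTCH3 in smooth muscle cells and pericytes. In injured glomeruli, Notch activity in podocytes is known to harm these cells.

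Replicates 1 to 4 carried 13566962, 16207027, 15348629 and 15244063 reads in the listed genes. Values are log2 CPM as deposited, that is, reads scaled to the total of the library, and the reads were recovered from them. CPM does not correct for transcript length, and no transcript or exon lengths were used here, so levels are compared between replicates of the same gene and not between genes. Marker lists of 9 cell types set the context. The summed CPM of 12 podocyte genes, which include the nephrin gene Nphs1, ran from 5756 in replicate 2 to 10304 in replicate 1, and that of 8 proximal tubule genes from 2661 in replicate 3 to 5527 in replicate 1. The summed CPM of 11 endothelial genes ran from 6997 in replicate 1 to 9278 in replicate 3, and that of 10 mesangial genes from 2866 in replicate 1 to 3664 in replicate 4. Marker RNA of glomerular and of tubular cells was therefore present in every library, in proportions that differed between them. In such bulk samples, fewer cells of a type cannot be told apart from less RNA per cell.

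Hes1 is the classical gene at which RBPJ binding has been studied. The stretch of 250 bases before the annotated start of a gene was taken from RefSeq (rat build GRCr8, a later build than that named for the deposited values) for 8 of the 10 genes. Dll4 and Hey1 are named only. The 6 letters TGGGAA, the core that RBPJ prefers, were searched on both strands (TTCCCA on the other) and are in capitals below. Sequences run 5′ to 3′ on the strand of the gene. Those of Hes1, Heyl and the related target Hey2 are shown because they belong to the pathway's readout, and those of Notch1, Notch4 and Jag2 because these 3 genes kept nearly constant proportions over the replicates.
Hes1 (chr11:84213046-84213295, minus strand): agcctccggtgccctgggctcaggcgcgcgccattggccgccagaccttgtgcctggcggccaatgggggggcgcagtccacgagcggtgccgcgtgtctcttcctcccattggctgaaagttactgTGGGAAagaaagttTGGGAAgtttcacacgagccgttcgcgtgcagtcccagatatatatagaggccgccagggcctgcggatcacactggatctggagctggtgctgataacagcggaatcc
Heyl (chr5:140793021-140793270, plus strand): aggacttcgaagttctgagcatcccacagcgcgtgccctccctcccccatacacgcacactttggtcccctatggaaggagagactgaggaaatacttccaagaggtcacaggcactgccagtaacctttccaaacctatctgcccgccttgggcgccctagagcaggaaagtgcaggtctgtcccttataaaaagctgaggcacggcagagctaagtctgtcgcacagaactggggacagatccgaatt
Hey2 (chr1:28640850-28641099, plus strand): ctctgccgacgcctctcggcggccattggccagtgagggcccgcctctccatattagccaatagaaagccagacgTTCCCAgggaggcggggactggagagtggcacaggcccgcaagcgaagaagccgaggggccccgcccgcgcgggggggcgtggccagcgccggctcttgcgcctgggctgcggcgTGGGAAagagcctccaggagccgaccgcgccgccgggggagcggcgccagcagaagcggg
Notch1 (chr3:29721614-29721863, minus strand): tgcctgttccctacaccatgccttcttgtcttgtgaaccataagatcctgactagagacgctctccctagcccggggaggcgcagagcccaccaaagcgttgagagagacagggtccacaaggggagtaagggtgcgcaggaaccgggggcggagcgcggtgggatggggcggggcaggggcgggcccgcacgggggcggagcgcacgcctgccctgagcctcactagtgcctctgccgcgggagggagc
Notch4 (chr20:4189073-4189322, minus strand): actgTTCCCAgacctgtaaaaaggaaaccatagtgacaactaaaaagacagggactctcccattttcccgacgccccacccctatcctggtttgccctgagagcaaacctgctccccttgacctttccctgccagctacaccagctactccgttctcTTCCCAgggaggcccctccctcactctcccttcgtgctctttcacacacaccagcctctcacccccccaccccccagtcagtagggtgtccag
Jag2 (chr6:137826739-137826988, minus strand): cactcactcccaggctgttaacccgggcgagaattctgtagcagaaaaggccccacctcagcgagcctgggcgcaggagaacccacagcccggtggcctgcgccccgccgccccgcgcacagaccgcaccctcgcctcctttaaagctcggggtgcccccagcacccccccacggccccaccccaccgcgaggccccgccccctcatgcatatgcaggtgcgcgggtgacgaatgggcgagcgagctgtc

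In Hes1 the motif occurs at positions -123 and -109, counted back from the start and naming the leftmost base, so that both copies lie on the same strand with their first bases 14 bases apart. Of 33469 such stretches in the RefSeq table, 22.1% hold TGGGAA on either strand, 2.71% hold it at least 2 times and 0.681% hold 2 copies whose starts are within 30 bases. Hey2 has a copy on each strand, at -175 and -60, and Notch4 has 2 copies on the opposite strand, at -246 and -93. Of the 8 genes with a sequence, only Hes1 and Notch4 hold the motif in these letters. Jag2 has 2 stretches in the RefSeq table, and only that of its most upstream start was searched and is shown. The 7-letter form GTGGGAA, which contains the 6-letter one and is in 5.27% of stretches, occurs in Hes1 at -124, in Hey2 at -61 and, on the opposite strand, in the ligand gene Dll1 at -185. Dll1, whose sequence is not shown, holds the 6-letter form at -185 and -82. The N-box CACNAG, a site to which HES proteins bind, was found in 4 places of Hes1, at -204, -171, -97 and -24, where 0.197% of stretches have 4 or more and 37.2% at least 1. Notch1 also has 4, at -221, -134, -28 and -26, with the last pair overlapping on opposite strands. Notch4 has it at -112 and -45 and Notch3 at -166, so 4 of the 8 genes with a sequence hold it. These are matches of letters, and binding was not measured.

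Each of the 10 genes differed between replicates by more than counting error. The reads of every gene in the table were set against Poisson sampling at the library totals (chi-square index of dispersion, Benjamini-Hochberg over 13261 genes), and 10 of 10 Notch genes had an adjusted p under 0.05. Of all genes, 69.5% did, so this is a property that most genes of the table share. The SD of log2 CPM over the 4 replicates had a median of 0.37 in the Notch genes, from 0.15 for Notch2 to 0.48 for Hey1, against a median of 0.18 over all genes; 9 of the 10 lay above that median. The variance of each gene was also compared with that of genes of similar level, by an F test against limma's variance trend, which called 0 of 13261 genes and therefore 0 of the 10. The trend and its prior of 3.79 degrees of freedom were fitted to these same variances, and the smallest adjusted p of any gene was 0.912. Notch3, at 7.89 times the trend, had an unadjusted p of 0.0412, so with 4 libraries this F test could hardly call any gene. At an unadjusted p under 0.05 that test passed 725 genes, or 5.47%, among them Notch3, Dll4 and Hes1. A second test compared a Pearson statistic of the reads with a dispersion trend that was kept fixed, and called 999 genes, or 7.53%. It called the same 3 Notch genes, with adjusted p = 0.0417 for Notch3, 0.0122 for Dll4 and 0.00968 for Hes1. Each of the 3 calls depended on single libraries. Notch3 was not called without replicate 2 (adjusted p = 0.912) or 4 (0.0848), Dll4 not without replicate 1 (0.0965), 2 (0.0911) or 4 (0.111), and Hes1 not without replicate 2 (0.0919) or 3 (0.126); with the reads of mitochondrial genes left out of the totals, the value for Notch3 was 0.0790. Other Notch genes were called under some settings: Jag2 (adjusted p = 0.0561 with all replicates) at 0.00292 without replicate 2, at 0.0278 with totals free of mitochondrial genes and at 0.0226 with a filter on low genes, and Notch4 (0.0892) at 0.0406 without replicate 2.

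**Figure D1:**
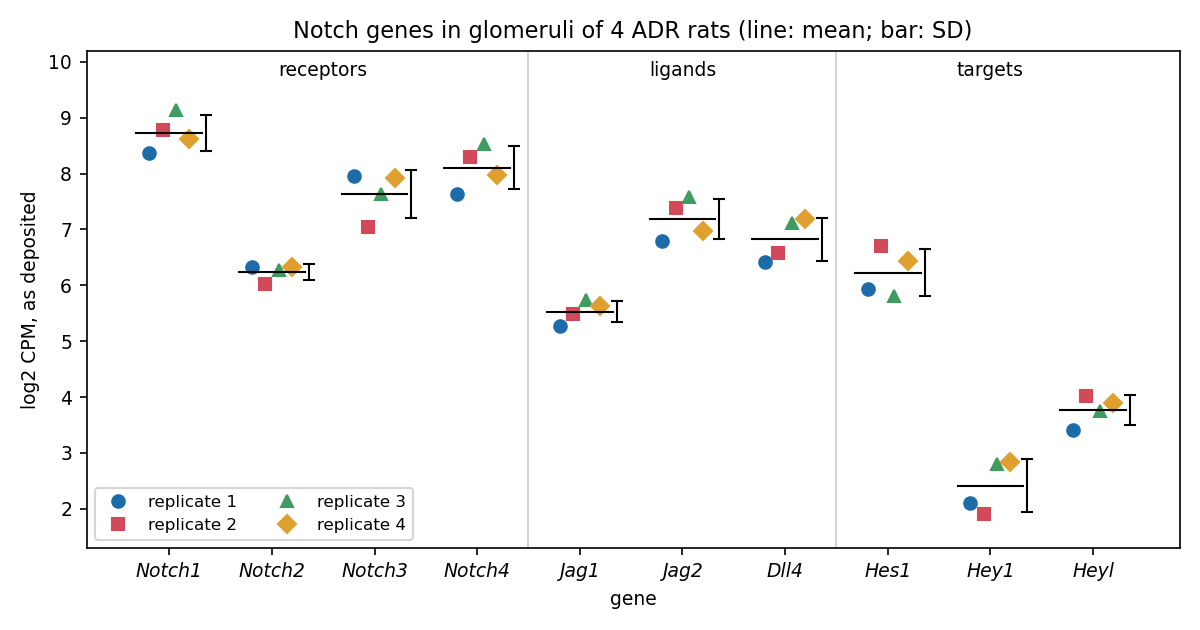
Deposited log2 CPM (vertical axis) of the 10 Notch genes (horizontal axis, by role) in each of the 4 replicates, with the mean as a line and the SD as a bar. Replicate 1 is the lowest for 6 genes, among them Notch1, Notch4 and Jag2, and replicate 2 is the lowest for Notch2, Notch3 and Hey1; of all genes, 35.0% are lowest in replicate 1 and 31.5% in replicate 2.

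Notch1, a receptor of many cell types and a main receptor of vascular endothelium, stood at 8.36, 8.78, 9.14 and 8.61 log2 CPM in replicates 1 to 4, a mean of 8.73 ± 0.33 (SD, n = 4). Replicate 3 was highest and replicate 1 lowest, a 1.72-fold range, and the exact 95% binomial intervals of its read share were apart in all 6 pairs of replicates. Without replicate 3 its SD was 0.21. Notch4, a receptor made mainly by endothelial cells, stood at 7.64, 8.30, 8.53 and 7.97 log2 CPM, a mean of 8.11 ± 0.39. It had 2697, 5102, 5656 and 3830 reads, a 1.85-fold range, with the replicates in the same order as for Notch1 and again no overlap of intervals in any of the 6 pairs.

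Notch3, the receptor of mural cells such as smooth muscle cells and pericytes, had another arrangement. It stood at 7.95, 7.04, 7.64 and 7.92 log2 CPM, a mean of 7.63 ± 0.42, with 3354, 2127, 3054 and 3679 reads. Replicate 2 was lowest, 1.88-fold below replicate 1, and the SD without replicate 2 was 0.17. The intervals of replicates 1 and 4 overlapped, at 239 to 256 and 234 to 249 CPM, while the other 5 pairs were apart. Notch2 was the most even of the 10, at 6.32, 6.02, 6.27 and 6.32 log2 CPM, a mean of 6.23 ± 0.15. Its departure from counting error rested on replicate 2: the adjusted p was 8.61e-07 with all replicates and 0.594 without it (chi-square test on reads), and the SD was 0.03 without it. An SD of 0.15 was close to the median of 0.13 for the 200 genes nearest in level, whereas the SDs of 0.33 for Notch1, 0.42 for Notch3 and 0.39 for Notch4 stood beside medians of 0.16 for their nearest 200 genes.

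Because the proportions of the receptors changed, the make-up of the receptor reads changed as well. Notch3 took 28.9% of the reads of the 4 receptors in replicate 1, 13.8% in replicate 2, 16.5% in replicate 3 and 25.0% in replicate 4. Notch4 took 23.3%, 33.1%, 30.5% and 26.0%. Replicates 1 and 4 thus had the larger Notch3 share and replicates 2 and 3 the larger Notch4 share. The summed receptor level was 855, 952, 1209 and 965 CPM in replicates 1 to 4. Shares of reads also reflect transcript length, so only their change between replicates is read.

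The 3 ligand genes were all lowest in replicate 1, as were 35.0% of all genes. Jag2, a ligand of the Serrate family, stood at 6.80, 7.38, 7.58 and 6.97 log2 CPM, a mean of 7.18 ± 0.36 (SD, n = 4), with 1514, 2701, 2945 and 1907 reads. Its replicates fell in the order seen for Notch1 and Notch4, highest in replicate 3, then 2, 4 and 1. That order was found for 9.34% of all genes and for 5 of the 11 endothelial genes. Dll4, the Delta-like ligand of arterial and sprouting endothelium, stood at 6.42, 6.57, 7.11 and 7.19 log2 CPM, a mean of 6.82 ± 0.38, with 1163, 1543, 2126 and 2226 reads. Replicates 3 and 4 were both high and replicates 1 and 2 both low, and the range was 1.70-fold. Jag1, a ligand that endothelial, smooth muscle and epithelial cells make, was more even, at 5.28, 5.49, 5.73 and 5.63 log2 CPM, a mean of 5.53 ± 0.20. Its intervals were apart in 3 of 6 pairs, and its SD was 0.12 without replicate 1. Of ligand reads, Jag2 took 54.3% in replicate 2 and 39.0% in replicate 4, while Dll4 took 31.0% and 45.6%.

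Of the 3 targets, Hes1 and Heyl were both highest in replicate 2, and Hey1 was lowest there. Hes1, a basic helix-loop-helix repressor and the classical Notch target, stood at 5.94, 6.71, 5.81 and 6.43 log2 CPM, a mean of 6.22 ± 0.42 (SD, n = 4), with 832, 1695, 860 and 1318 reads. It was high in replicates 2 and 4 and low in replicates 1 and 3; the intervals of the last 2 overlapped, at 57.2 to 65.6 and 52.3 to 59.9 CPM, and the range was 1.87-fold. Hey1, a related repressor that is prominent in arterial endothelium, was scarce, at 58, 60, 107 and 108 reads, or 2.11, 1.90, 2.81 and 2.83 log2 CPM. Its mean was 2.41 ± 0.48, the widest spread of the 10, of which counting error alone would give an SD of 0.17. Replicates 3 and 4 were high and replicates 1 and 2 low, with no overlap of intervals between these pairs of libraries and overlap within each. Heyl, the family member expressed in smooth muscle, had 143, 262, 207 and 225 reads, or 3.40, 4.02, 3.76 and 3.89 log2 CPM, a mean of 3.77 ± 0.26. Only its replicate 1 stood low; without it the adjusted p against counting error was 0.21, beside 0.000873 with all replicates, and the SD was 0.13.

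**Figure D2:**
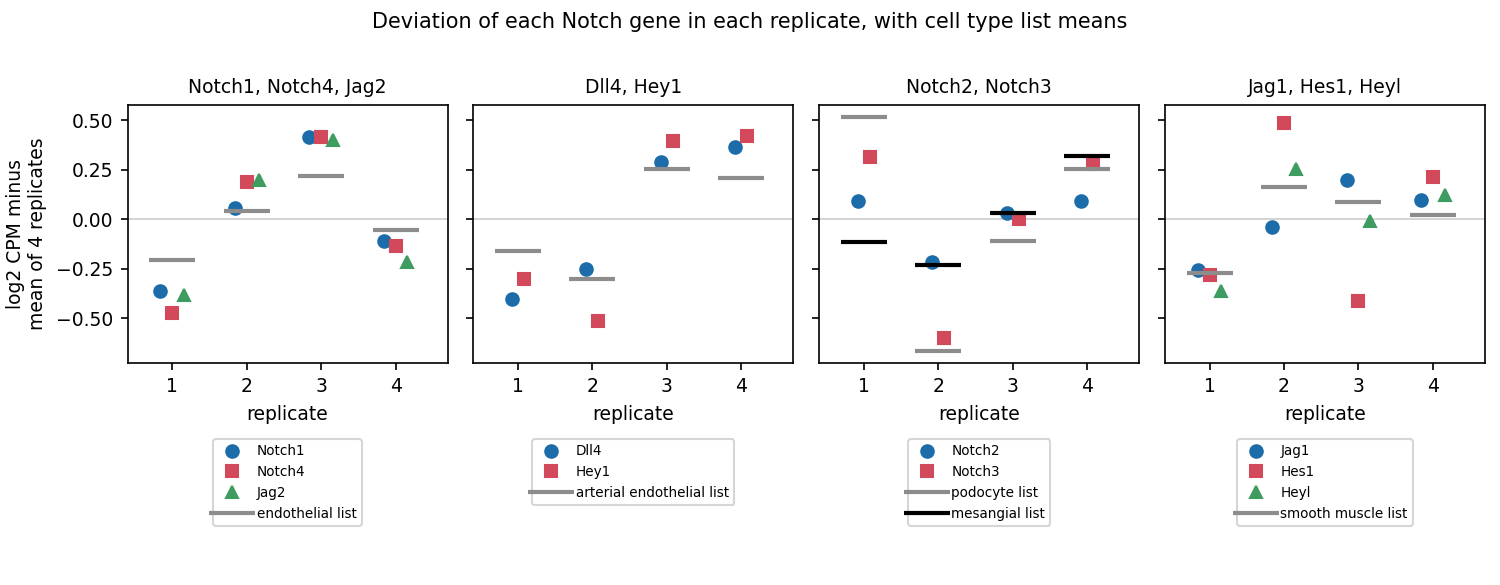
Deviation of each Notch gene from its own mean over 4 replicates (vertical axis, log2 CPM) in each replicate (horizontal axis), in 4 panels, with bars for the mean of a cell type list treated the same way. Notch1, Notch4 and Jag2 overlie each other, Dll4 and Hey1 are both high in replicates 3 and 4, and Notch3 lies near the podocyte list in replicates 2 and 4.

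The proportions between genes showed which of them varied together. Of the 45 pairs that the 10 genes form, the smallest SD of a log2 ratio over the replicates was that of Notch4 to Jag2, at 0.07, followed by Notch4 to Notch1, at 0.10, Notch1 to Jag2, at 0.10, and Hey1 to Dll4, at 0.17. The log2 ratio of Notch4 to Jag2 was 0.83, 0.92, 0.94 and 1.01 in replicates 1 to 4, where counting error alone would give an SD of 0.04. On their own, Notch4 had an SD of 0.39 and Jag2 of 0.36. The log2 ratio of Hey1 to Dll4 was -4.31, -4.67, -4.31 and -4.36, and its SD of 0.17 equalled the counting error of 0.17, which is set by the few Hey1 reads. Notch4 to Notch1 was among the 7 ratios listed for this purpose; the other 3 were singled out after their values were seen, as the smallest of 45, and carry no test.

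Other proportions changed more, between 1.40-fold and 3.501-fold. The log2 ratio of Hey1 to Hes1 ran from -4.81 in replicate 2 to -3.001 in replicate 3, a 3.501-fold change in proportion with an SD of 0.75, where counting error would give 0.17. The log2 ratio of Heyl to Hes1, chosen after its values were seen, had an SD of 0.28, beside 0.42 for Hes1 and 0.26 for Heyl alone, and changed 1.56-fold. The ratio of Heyl to Notch3, whose product acts in the same mural cells, ran from -4.55 in replicate 1 to -3.02 in replicate 2, a 2.88-fold change. Heyl was thus lowest in the replicate where Notch3 was highest. Notch3 to Notch1 ran from -1.75 in replicate 2 to -0.41 in replicate 1, a 2.52-fold change; this ratio was chosen after its values were seen. For Jag2 to Jag1 and Dll4 to Jag1 the changes were 1.46-fold and 1.40-fold. Heyl to Hey1 changed 2.25-fold, with an SD of 0.53, or 0.18 without replicate 2. Notch3 to Notch2 changed 1.52-fold, with an SD of 0.28, or 0.14 without replicate 2. Of the 7 listed ratios, 5 rested in part on replicate 2, without which the SD fell by over 1.5 times; that of Hey1 to Hes1 was then 0.43 and that of Heyl to Notch3 0.35.

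**Figure D3:**
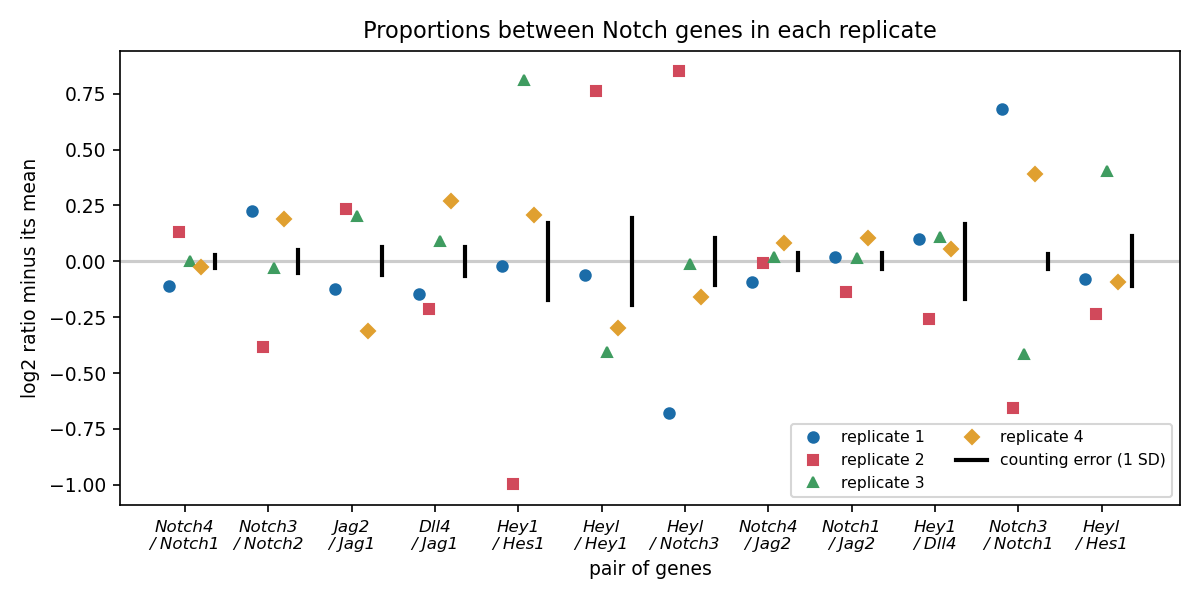
Log2 ratio of 12 pairs of Notch genes minus its mean over the 4 replicates (vertical axis), by pair (horizontal axis), with a bar of 1 SD of counting error to either side. Points for Notch4 / Jag2, Notch4 / Notch1 and Notch1 / Jag2 lie within 0.14 of the mean, while those for Hey1 / Hes1 spread from -0.998 to 0.810.

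The Notch genes were then set beside the cell type lists in the same libraries. For each gene the mean log2 CPM of a list was subtracted within each replicate; a gene that keeps its proportion to a list then has a smaller SD than on its own. Subtracting the endothelial list lowered the SD of 7 of the 10 Notch genes, against 30.9% of all genes outside that list; without replicate 1 it lowered 4. Notch1 went from 0.33 to 0.15, Notch4 from 0.39 to 0.22 and Jag2 from 0.36 to 0.20. The mean of the endothelial list had the same order of replicates as these 3 genes, and the median SD of its 11 single genes was 0.19. The immune list also lowered 7, against 26.2% of all genes outside it, the smooth muscle list lowered 7, against 28.4%, and the distal nephron list, whose own SD was 0.04, lowered 8, against 49.5%. With list medians the smooth muscle count was 3 and the distal nephron count 2, and without replicate 3 the distal nephron count was 3. A wide spread makes a gene easier to lower, and the 10 Notch genes had a median SD of 0.37 against 0.18 over all genes. The shares of all genes, here and below, are therefore not a like baseline for them. With the immune list subtracted, the SD was 0.14 for Notch1 and 0.19 for Notch4, smaller than with the endothelial list. The immune list had the same order of replicates as the endothelial one. Its summed level ran from 1105 to 1404 CPM, with the leukocyte marker Ptprc among its 8 genes, and its part in these values was not tested.

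The arterial endothelial list lowered the SD of 5 of the 10, against 15.1% of all genes outside it, and of 3 with its median in place of its mean or without replicate 3. Dll4 and Hey1 were closest to this list, which holds connexin genes Gja4 and Gja5, Sox17 and Efnb2 among 7 genes. Dll4 went from an SD of 0.38 to 0.17 and Hey1 from 0.48 to 0.21 after its subtraction. The mean of that list was 7.19, 7.04, 7.60 and 7.56 log2 CPM in replicates 1 to 4, high in the 2 libraries in which both genes were high. The mesangial list was the next closest for both, at 0.23 for Dll4 and 0.29 for Hey1. Without replicate 3 the mesangial list was the closest for both, and without replicate 1 the podocyte list was the closest for Hey1.

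Notch3 was closest to the podocyte list, with an SD of 0.14 after subtraction beside 0.42 alone and 0.33 for the mesangial list. It was the only one of the 10 whose SD the podocyte list lowered, and the list lowered 7.74% of all genes outside it; without replicate 1 it lowered 3 of the 10. The mean of the podocyte list stood at 8.52, 7.34, 7.89 and 8.26 log2 CPM, an SD of 0.51, in the same order of replicates as Notch3 and Notch2. Without replicate 2 the parietal epithelial list was the closest instead. The summed level of the 10 mesangial genes, 2866 to 3664 CPM, had another order than Notch3. Heyl was closest to the smooth muscle list, with an SD of 0.11 beside 0.26; with list medians in place of means it was closest to the immune list, at 0.19. The summed level of the 5 smooth muscle genes used was nearly flat, at 1120, 1114, 1140 and 1134 CPM in replicates 1 to 4. It was lowest in replicate 2, where Heyl was highest, so the closeness holds for the mean of log2 values only. Hes1 stayed at 0.36 or above whichever of the 9 lists was subtracted. Of the 8 smooth muscle genes, Cnn1, Actg2 and Lmod1 were not analysed here, and neither was Pecam1 of the endothelial list. With 4 libraries and 9 lists these nearest lists are descriptions, and the nearest list was the same without each single replicate for none of the 10 genes.

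**Figure D4:**
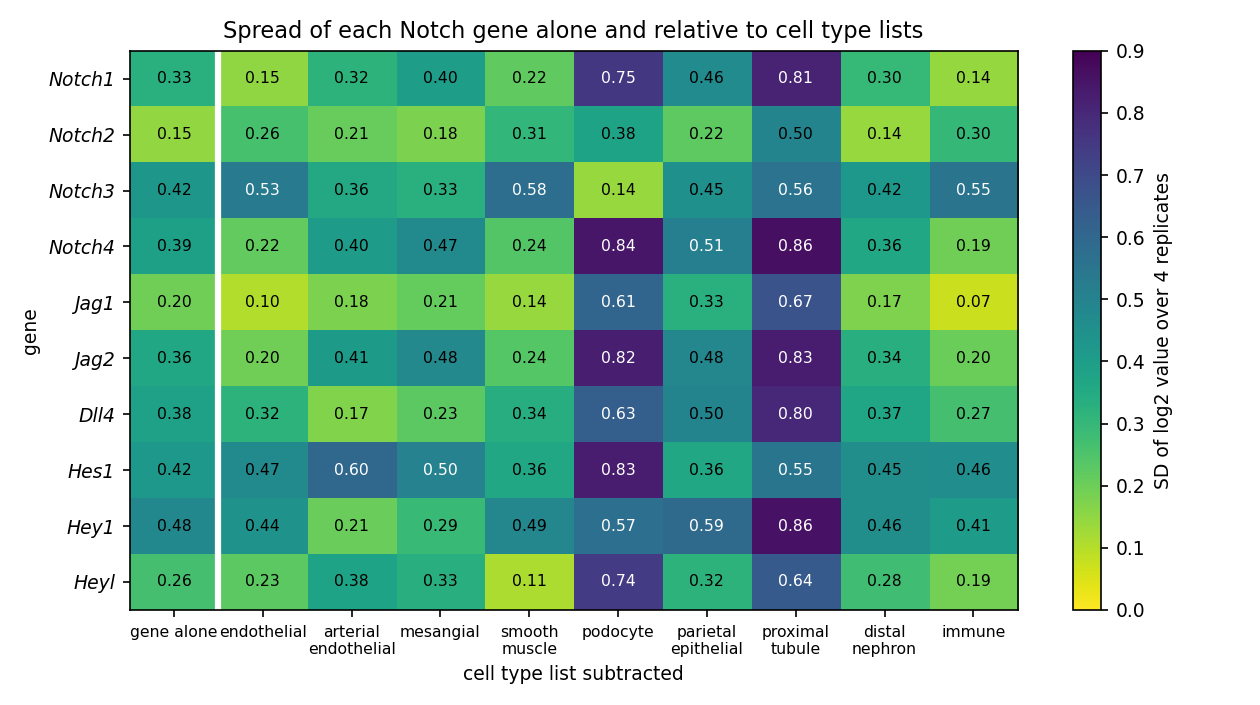
SD over 4 replicates of each Notch gene (rows) alone, in the first column, and after subtraction of the mean log2 CPM of each of 9 cell type lists (columns); darker cells have a larger SD. Notch3 falls from 0.42 to 0.14 with the podocyte list and Hey1 from 0.48 to 0.21 with the arterial endothelial list.

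Other genes of the pathway were described from lists of 62 genes, of which 48 were in the table. Counting error was exceeded by 44 of the 48, beside 69.5% of all genes; limma's trend called 0, and 0 at an unadjusted p under 0.05. With the dispersion trend held fixed 3 were called, Dll1, Dtx4 and Bhlhe40, beside 7.53% of all genes. None of these 3 was called without replicate 2 (adjusted p of 1.000, 0.693 and 0.936 in that order) or without replicate 4 (0.344, 0.0624 and 0.0634). Dll1 was also not called with the filter on low genes (0.0706) or without replicate 3 (0.121), Bhlhe40 not without replicate 3 (0.0908), and Dtx4 not with the filter (0.0591), with totals free of mitochondrial genes (0.0833) or without replicate 1 (0.0665). Under some settings 2 others were called. Aph1b (adjusted p = 0.0584 with all replicates) was at 0.0135 with the filter, 0.0114 without replicate 2 and 0.0387 without replicate 3. Mib1 (0.0554) was at 0.0324 and 0.0291 with trimmed-mean and median-of-ratios scaling and at 0.0459 without replicate 3. The median SD of the 48 was 0.17, close to the 0.18 of all genes, while that of the 10 receptors, ligands and targets was 0.37. Of the 48, 22 had an SD above the median of all genes, beside 9 of the 10.

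The 9 genes for receptor cleavage had a median SD of 0.13, with 8 beyond counting error. Adam17, an ADAM protease, stood at 7.81 ± 0.16 log2 CPM (SD, n = 4). Aph1b, a gamma-secretase subunit, stood at 4.66 ± 0.39, with 258, 404, 361 and 557 reads; it was high in replicate 4 and low in replicate 1. Of the 5 glycosyltransferases, whose median SD was 0.12 and of which 4 were beyond counting error, Lfng stood at 6.10 ± 0.09 and Rfng at 5.004 ± 0.12. Both encode fringe enzymes, which add sugars to the receptors and so shift their choice of ligand. The third fringe gene, Mfng, named after its values were seen, had the replicate order of Notch1, at 4.96, 5.34, 5.62 and 5.26. That order was found for 7 of the 48 other pathway genes, or 14.6%, Tle1 and Mib2 among them, beside 9.34% of all genes.

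The nuclear complex had 7 measured genes of 9, all beyond counting error, with a median SD of 0.18. Rbpj, which encodes the DNA-binding partner of every Notch receptor, stood at 6.46, 5.91, 6.38 and 6.60 log2 CPM, a mean of 6.34 ± 0.30. Maml2, a Mastermind coactivator, stood at 5.06, 4.32, 4.79 and 4.95, a mean of 4.78 ± 0.32. Both were lowest in replicate 2, as were Notch3 and 31.5% of all genes, while Hes1 was highest there. The other genes of this list, named after their values were seen, did not all share that arrangement. Maml1 and Snw1 were lowest in replicate 2, Crebbp and Kat2a were highest there, and Ep300 was highest in replicate 1. The 9 corepressor genes had a median SD of 0.13 and all were beyond counting error. Among them Tle1, a Groucho family gene, stood at 4.57 ± 0.27.

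Of 14 genes for trafficking and turnover, 13 were measured and 11 were beyond counting error, with a median SD of 0.18. Mib2, a ubiquitin ligase that helps ligands to be taken up, stood at 6.74 ± 0.11, and Neurl1, another such ligase, at 2.15 ± 0.35. Dtx4, a Deltex family ubiquitin ligase, was the most uneven of the 48 and was named after its values were seen; it stood at 4.05, 2.78, 3.43 and 3.83 log2 CPM and was called at the fixed trend (adjusted p = 0.0351). Its order of replicates was that of Notch3. Nrarp, a Notch target whose product restrains the pathway, was named after its values were seen, and stood at 4.50, 5.07, 5.03 and 4.99, low in replicate 1 only, as was Heyl.

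Of the 8 further ligand genes 2 were measured, Dll1 and Egfl7. Dll1, a Delta-like ligand of epithelial cells among others, stood at 4.60, 5.22, 4.69 and 4.49 log2 CPM, high in replicate 2, and was called at the fixed trend (adjusted p = 0.0323). Egfl7, an endothelial secreted protein that can bind Notch, stood at 8.49, 9.32, 8.97 and 8.55, a mean of 8.83 ± 0.39. Both were highest in replicate 2, unlike Notch1, Notch4 and Jag2. Of the 8 further targets 3 were measured, all beyond counting error. Hey2, the partner of Hey1 in arterial endothelium, had 113, 143, 153 and 193 reads, or 3.06, 3.15, 3.32 and 3.67 log2 CPM. Bhlhe40, a repressor that answers to hypoxia, the circadian clock and other signals besides Notch, stood at 5.52, 6.11, 5.22 and 5.40, and was called at the fixed trend (adjusted p = 0.0105). It was highest in replicate 2 and lowest in replicate 3, as was Hes1.

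**Figure D5:**
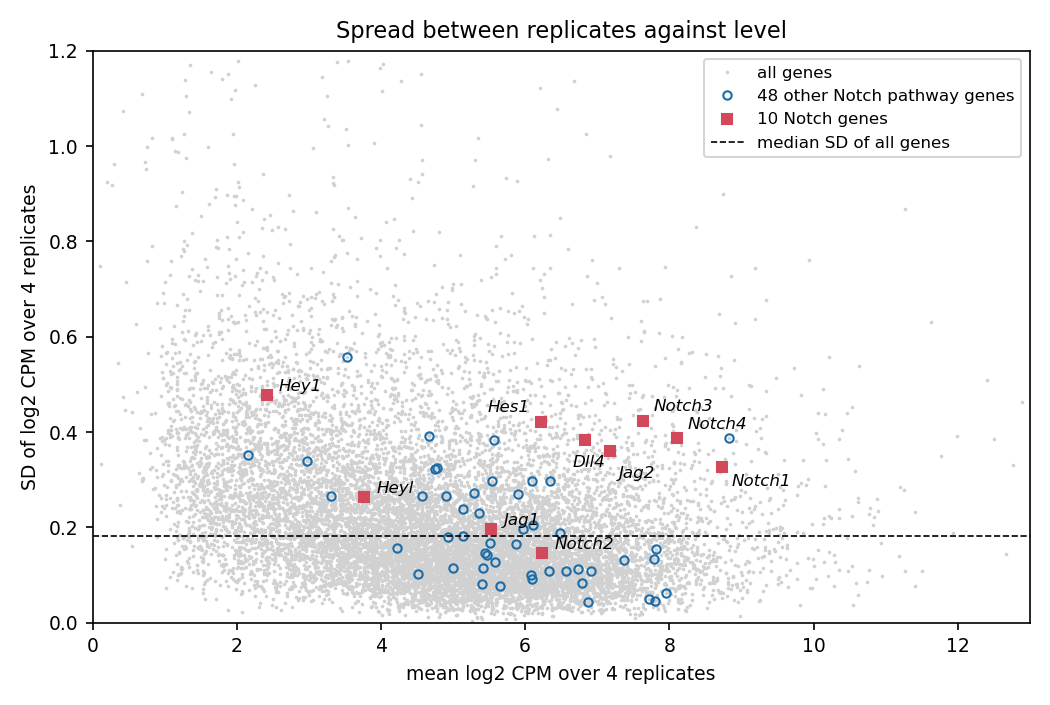
SD of log2 CPM over 4 replicates (vertical axis) against mean log2 CPM (horizontal axis) for the 10 Notch genes, 48 other pathway genes and all genes, with the median SD of all genes as a dashed line; 37 genes lie outside the axes. Of the 10, all but Notch2 lie above the dashed line, which stands at 0.18.

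The genes most like Hey1, the most variable of the 10, were sought by the root mean square distance between log2 values centred on each gene's mean, over the 4 replicates and 11030 protein-coding genes with a mean of at least 100 reads. Hgf, the hepatocyte growth factor gene, was nearest at 0.04, with 67, 74, 129 and 135 reads. Msx1, a homeobox gene, followed at 0.07, then Cxxc4 at 0.08, Zfp36, an mRNA decay factor of the immediate early class, at 0.08, and Serpinb9 at 0.10. Within a distance of 0.1 lay 6 genes. All 5 distances are below the SD of 0.17 that counting error gives Hey1 alone, so their order is within counting error. For Notch2, the least variable of the 10, the 5 nearest were Osbpl9, RGD1308601, Scarf2, Clip1 and Nf2, and 1757 genes lay within 0.1, so a likeness to so even a gene sets few genes apart.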

How the data were processed

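Poly(A) RNA of glomeruli from 4 ADR replicates was analysed. The deposited file gives 1 log2 value per gene and sample. The submitters' processing notes name HISAT2, featureCounts, Subread, limma and the build Rnor_6.0, with no versions or roles. From the values, 2 to the power of each deposited log2 value is a whole number of reads plus 0.5, times a constant of the column: 100% of values were whole within 0.01 reads. The annotation, the use of strand and the filter on low genes are not given in the sources used here. Of 13265 rows, 4 with displaced values were left out; the 13261 others entered every test, and 116 that share a symbol were not used by name.

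Replicate numbers follow accession order. Reads were tested against Poisson sampling (chi-square, 3 degrees of freedom) and variances of log2(CPM + 1) against the trend of limma 3.58.1 in R 4.3.3 (F test, prior of 3.79 degrees of freedom); Benjamini-Hochberg adjustment ran over all genes, with a threshold of 0.05. The fixed-trend test matched the median Pearson statistic to its chi-square median in 40 bins of mean reads. The tests were tested on simulated data. Alternatives were 3 other scalings, 2 pseudocounts, a filter at 1 log2 CPM, a robust prior and each replicate left out. Intervals are 95% exact binomial and cover counting error only, since reads carried no molecular identifiers; counting SDs of log2 values follow from read numbers. Named genes were the 10 members, the gene with the highest and with the lowest CPM of each pathway list (a choice of names, not a ranking), genes that limma called, and the 5 nearest to the most and least variable member; others are said to have been named after their values were seen. A result that this rule would name is not reported here. The members and lists were chosen with earlier results of these data known. Levels per transcript length, which the design named, were not computed because no exon lengths were used here. An exact 2-sided sign-flip permutation test over 4 samples cannot go below p = 0.125 and was not run. The libraries ran over 2 lanes, which the single column per sample does not separate.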

Additional observations from a re-analysis of the deposited data

How the results depend on the processing

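The calls against counting error numbered 10 of the 10 Notch genes under the 3 other scalings and the filter, and 9 without replicate 1 (Heyl lost) or replicate 2 (Notch2 lost). With each replicate left out they ran from 33 to 39 among the 48 other pathway genes, beside 44, and from 7326 to 8678 over all genes, beside 9222. Excess variance by limma gave 0 calls under each alternative run with that test, which could hardly call any gene here. The fixed dispersion trend gave 999 over all genes, 3 among the 10 and 3 among the 48 other pathway genes. Under that trend, in repeats added after seeing the data, the calls ran from 1 to 2 among the 10 and from 0 to 3 among the 48 when each replicate was left out, while those over all genes ran from 611 (4.61%) to 711 (5.36%), 2 of these 4 counts being lower than 999 by over 1.5 times; without replicate 2 the 2 called among the 10 were Notch4 and Jag2, and with the filter 4 were called, beside 7.32% of the genes that passed it. Subtraction of the list median in place of the mean lowered the SD of 3 Notch genes with the arterial endothelial list (5 with the mean, beside 15.1% of all genes outside it), of 3 with the smooth muscle list (7, beside 28.4% of all genes outside it) and of 2 with the distal nephron list (8, beside 49.5%). The closest list then changed for Notch1, Notch2, Notch4, Jag1 and Heyl. With all replicates and list means, the mesangial list lowered 3 of the 10, beside 17.4% of all genes outside it. The parietal epithelial list lowered 1, beside 22.2%, and the proximal tubule list 0, beside 7.5002%. With each replicate left out, the number of Notch genes lowered ran from 4 to 7 for the endothelial list and 3 to 7 for the arterial. It ran from 3 to 8 for the mesangial, 5 to 7 for the smooth muscle and 1 to 3 for the podocyte list. For the parietal list it ran from 0 to 2 and for the proximal tubule list from 0 to 1. For the distal nephron list it ran from 3 to 8 and for the immune list from 7 to 8. The cause was not tested. Totals without mitochondrial genes raised all values by 0.11 to 0.19 (log2); under the 3 scalings no SD of the 10 moved by over 1.5 times. No value was outside the group in the check for single odd replicates, which 40 values entered. The order of levels per length was not run. No paired analysis was possible because there is a single group. Of the 10 genes, depth limits Hey1 most, whose lowest library had 58 reads.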
